A study of Mus musculus with 15 samples.

Results

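Cells sorted for a germ cell reporter from testes of Akt1s1 null mice (KO) were compared between adults and pups, and transcripts of haploid sperm cells were high in adults, while transcripts of supporting Sertoli cells and of early spermatogonia were high in pups. The comparison set 3 libraries of KO mice aged 2 to 3 months (adult; libraries 10, 11 and 12) against 3 libraries of KO pups 7 days post partum (7 dpp; libraries 4, 5 and 6), out of 15 libraries in the series. All genes with a deposited signal of at least 1 in at least 2 of these 6 libraries were described, which were 16440 of 27128 gene names. Another 3621 names were listed at 0 in all 6 libraries.

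Every mouse of the series carried a GFP transgene under the Pou5f1 (Oct4) promoter. KO mice had in addition a null mutation of Akt1s1, and wild-type (WT) mice had the transgene alone. The tissue was testis, taken apart with collagenase, DNase I and trypsin. GFP-positive cells were collected by flow cytometry and messenger RNA libraries were made from small sorted samples, per the labels. WT libraries of the same ages, 2 of adults (7 and 9) and 2 at 7 dpp (2 and 3), are given beside the KO values. The labels call all sorted cells primary spermatogonia. They do not say how the null allele was made, whether pups were pooled, or whether each library had an animal of its own. The p-values therefore cover the variation among these particular libraries, part of which may be technical.

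Akt1s1 encodes PRAS40, a component and inhibitor of the mTORC1 kinase complex, which couples growth signals to protein synthesis. In the mouse testis, spermatogonia are the diploid germ cells that renew themselves or differentiate. In a pup they are the most advanced germ cells present or just entering meiosis, while the adult tubule also holds spermatocytes in meiosis and spermatids that replace their histones with transition proteins and protamines. Sertoli cells nurse the germ cells inside the tubule, and Leydig cells and macrophages lie between tubules.

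The deposited signal behaves like TPM, a scale that divides by transcript length. Levels of different genes are compared within a library on that reading, which was not tested. The signal keeps no read number and the depth is unknown. Totals ran from 896543 to 917815 in adult and from 969003 to 1075136 in 7 dpp libraries, and 15283 to 16151 against 14515 to 14878 genes had a signal of at least 1. On the log2(signal + 1) scale the libraries correlated across genes with r of 0.97 to 0.98 among adults and 0.98 to 0.99 at 7 dpp, and with 0.88 to 0.92 between the ages. Library 10 was the adult library least like those at 7 dpp (0.88 to 0.89). Libraries stood apart within both ages. Adult library 10 had a summed signal of 7747 for 52 spermatid genes, against 3875 in library 11 and 3960 in library 12, and the Leydig cell genes summed to 3099, 110 and 1350 in libraries 10, 11 and 12. Among KO pups, library 4 was the lowest in genes of undifferentiated spermatogonia such as Gfra1 and the highest in Sertoli cell genes. Its Gfra1 signal of 11.8 was near the 12.8 and 18.7 of WT pups, while libraries 5 and 6 had 89.7 and 45.4. Counts and genes for which these libraries matter most are also given without them.

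The label of the sorted cells was checked against germ cell markers. Ddx4, the RNA helicase of germ cells, had a signal of 371, 372 and 360 in adult and 458, 517 and 490 in 7 dpp KO libraries, so germ cell RNA was abundant in all 6. The spermatogonial factor Zbtb16 was present in all 6 as well (55.9 to 66.2 in adults and 106 to 141 at 7 dpp), and RNA of spermatids, which are not spermatogonia, was present beside it in adults. Pou5f1, whose promoter drives the sorting marker, had 213, 271 and 139 in adults and 514, 255 and 630 at 7 dpp. These ranges overlapped, because adult library 11 lay above 7 dpp library 5. Pou5f1 fell by 1.12 ± 0.34 (SE) on the log2 scale (limma, adjusted p = 0.0156), a call that was lost without library 4, 6 or 12 (-0.85 without library 6 and -0.86 without library 12). Akt1s1 itself had 43.1, 45.2 and 47.4 in adults and 39.8, 39.5 and 37.2 at 7 dpp, with a log2 difference of 0.22 ± 0.09 that did not pass (adjusted p = 0.0735). It passed as higher under 4 of the other settings, among them the fit of the 6 libraries alone. In WT it had 67.9 and 67.1 in adults and 54.5 and 72.9 at 7 dpp. Which part of Akt1s1 was removed is not stated in the labels, so these levels do not check the allele.

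Of the 16440 genes, 3874 were higher and 3674 lower in KO adults than in KO pups (limma on log2(signal + 1), Benjamini-Hochberg adjusted p under 0.05). That is 23.6% and 22.3% of the genes tested, and the counts of list members below are read against these shares. A log2 change of 2 or more was found in 603 of the higher genes (3.67% of genes tested) and a change of -2 or less in 196 of the lower ones. At 4 or more there were 100 higher and at -4 or less 12 lower genes, so the steep changes were mostly gains in adults. The median change over all genes was 0.02. Libraries did not overlap between the ages for 4899 genes higher in adults (29.8%) and 4601 lower in adults (28.0%). When all libraries were scaled to an equal sum (rescaled totals) the median was 0.18, and the split became 5645 higher and 2510 lower genes. Small changes below therefore depend on the scale, and shifts of whole lists are given beside this median. A total of 1081 of the genes that passed were provisional gene models, which are counted and not named.

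**Figure D1:**
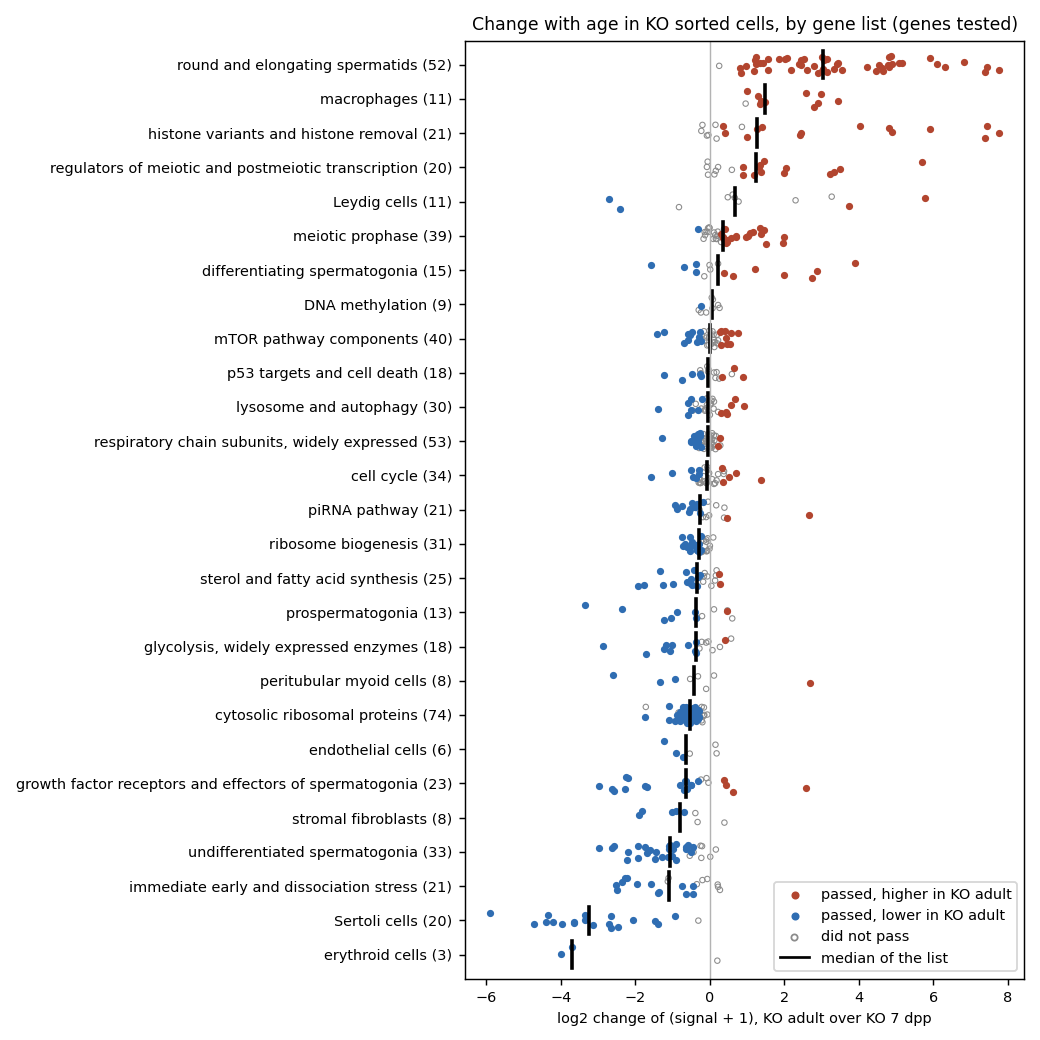
Each point is a gene of the list named on the left (number tested in brackets), placed by its log2 change of (signal + 1) in KO adult over KO 7 dpp cells, with higher genes in red, lower genes in blue, genes that did not pass as open circles and the list median as a black bar. Spermatid genes lie to the right (median 3.04), Sertoli cell genes to the left (median -3.24), and mTOR pathway genes around 0.

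Genes that package the sperm genome showed the steepest gains. The 12 largest rises that fitted the naming rule were those of Prm2, Tnp2, Prm1, Smcp, Crisp2, Lcn2, Gsg1, Tnp1, Insl3, Spz1, Hrasls5 and Hmgb4. Prm1, a protamine that replaces histones in sperm, had a signal of 1504, 717 and 745 in adults, against 6.55, 1.85 and 6.91 at 7 dpp. Tnp1, a transition protein that precedes the protamines, had 649, 337 and 300 in adults, against 4.53, 10.7 and 3.66 at 7 dpp. Adult and 7 dpp libraries were far apart for both genes, and library 10 was the highest adult library. The log2 changes were 7.39 ± 0.44 for Prm1 (adjusted p = 2.59e-07) and 5.92 ± 0.56 for Tnp1 (4.70e-06). Prm2 and Tnp2 rose by 7.76 ± 0.38 and 7.43 ± 0.42. Prm1, Prm2 and Tnp2 are neighbours on the minus strand of chromosome 16, between positions 10787936 and 10805839 in GENCODE M21. Prm3, which lies among them, rose less, by 2.44 ± 0.32, with 41.3, 21.4 and 31.2 in adults and 2.53, 7.69 and 5.21 at 7 dpp.

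Of 52 genes of round and elongating spermatids tested, 51 rose and 0 fell, with a median of 3.04. A signal of at least 1 was reached by 52, 51 and 51 of them in adults and by 24, 23 and 25 at 7 dpp. Members under 1 in all 7 dpp libraries entered the test only through the adults and could hardly fall, so the count partly reflects the filter. The same holds for such members of the other lists. Leaving out the 4 members that were listed at 0 in all 7 dpp libraries, for which no fold can be given, the median was 3.14. The exception was Tex101, a surface protein of germ cells, with 233, 299 and 338 in adults and 230, 260 and 233 at 7 dpp (0.25 ± 0.15, adjusted p = 0.190). Without adult library 10, 49 of 51 tested members rose and the median was 2.65. Parts of the sperm tail rose as well. Odf1, a protein of its outer dense fibres, had 165, 68.7 and 82.8 in adults and 1.93, 1.83 and 1.57 at 7 dpp (5.16 ± 0.38), and the fibrous sheath gene Akap4 rose by 4.79 ± 0.35. Among acrosome genes, Acrv1, a protein of the acrosome, had 17.6, 7.26 and 4.74 in adults and 0, 0.29 and 0 at 7 dpp (3.14 ± 0.34), and Spaca1, needed to shape the acrosome, had 22.5, 8.74 and 9.98 in adults and 2.90, 7.20 and 3.79 at 7 dpp (1.35 ± 0.33). Spaca7, another acrosomal gene, was listed at 0 in all 3 libraries at 7 dpp and had 12.3, 5.12 and 5.42 in adults.

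The list of histone variants and histone removal shares members such as Prm2 with the spermatid list. Of its 21 genes tested, 14 rose and 0 fell (median 1.27, or 1.00 without 2 members listed at 0 at 7 dpp). They included the spermatid linker histone genes H1fnt (51.8, 26.5 and 24.2 in adults, against 0.136, 0.043 and 0.195 at 7 dpp) and Hils1, which rose by 4.89 ± 0.28 and 4.80 ± 0.30. The spermatid histone gene H2al2a was listed at 0 in all 7 dpp libraries and had 23.8, 11.2 and 13.5 in adults. Chd5, a chromatin remodeler of spermatids, rose by 1.41 ± 0.22. Brdt, whose bromodomains bind acetylated histones when they are removed, had 46.3, 40.8 and 36.0 in adults and 46.8, 34.0 and 50.8 at 7 dpp and did not pass (-0.08 ± 0.16).

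**Figure D2:**
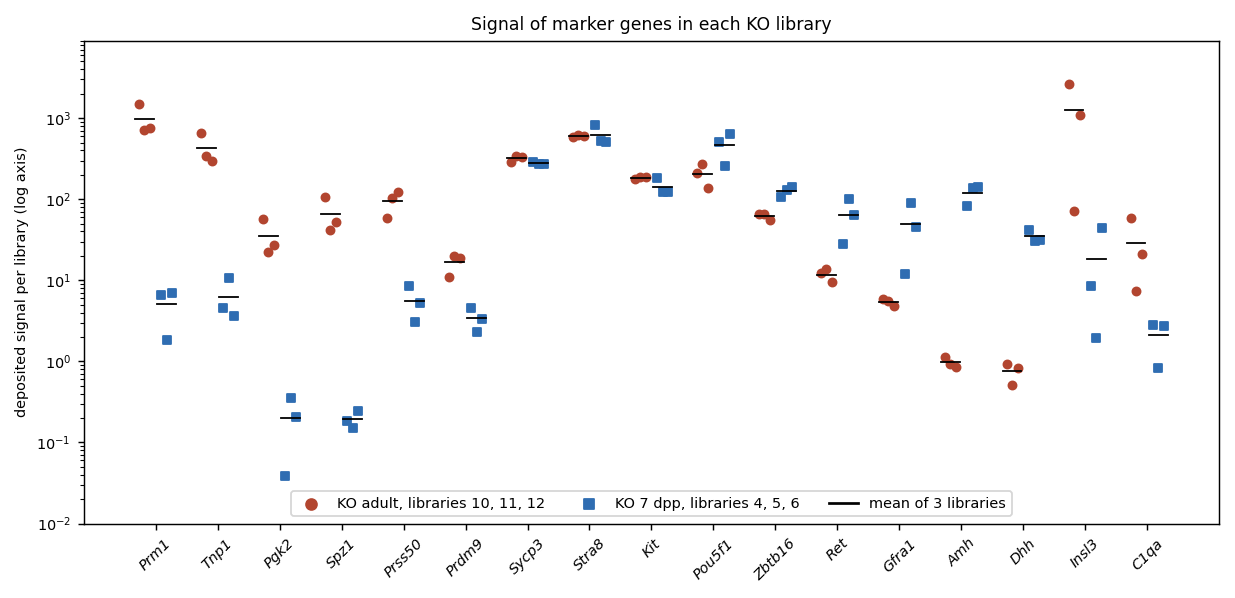
Deposited signal of 17 named genes in each KO library on a log axis, with adults (red circles, libraries 10, 11 and 12 from left to right) beside 7 dpp (blue squares, libraries 4, 5 and 6) and the mean of 3 libraries as a bar. Prm1, Tnp1, Pgk2 and Spz1 are higher in adults by more than any spread within an age, Sycp3 and Stra8 are level, and Insl3 in library 11 lies close to the 7 dpp libraries.

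Regulators of transcription in and after meiosis rose together with these genes: 13 of 20 rose and 0 fell, with a median of 1.25. Spz1, a helix-loop-helix protein of the testis, had 106, 41.2 and 52.3 in adults and 0.184, 0.151 and 0.246 at 7 dpp (5.70 ± 0.30, adjusted p = 1.05e-07). Fhl5 (ACT), a coactivator of the factor CREM, rose by 3.32 ± 0.30, and Gtf2a1l, a germ cell form of TFIIA, by 3.23 ± 0.35. Rfx2, which binds the X-box of promoters and is needed for spermiogenesis, had 30.2, 16.5 and 19.0 in adults and 6.52, 4.38 and 3.32 at 7 dpp (1.99 ± 0.25), and Sox30 rose by 0.90 ± 0.18. Crem itself, which binds cAMP response elements and is needed for spermatid gene expression, had 11.6, 4.88 and 6.26 in adults and 3.57, 4.78 and 5.00 at 7 dpp. It did not pass (0.59 ± 0.26, adjusted p = 0.0834) and its libraries overlapped. Crem did pass with rescaled totals (0.74) and without adult library 11 (0.82).

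Promoters of the genes that rose were read from RefSeq (GRCm38.p6) to show what they share. A promoter was matched for 11202 of the tested genes, of which 404 rose by a log2 change of 2 or more and 679 fell by 1 or more. Where a gene had several promoter entries, it counted as holding a motif if any entry did. Its GC share was then the mean of its entries. The letters TGANNTCA, which hold the outer bases of a cAMP response element and read the same on both strands, were searched in the 250 bases before the start after these letters had been seen in the promoters of Prm1, Tnp1 and Gsg1, so their shares are descriptions with no test. The last 120 bases before the start are printed below for 7 steeply rising genes, with TGANNTCA in capitals. Gsg1 is a germ cell gene, Hmgb4 encodes an HMG-box protein, Pgk2 and Gapdhs glycolytic enzymes of sperm, and Akap4 a sheath protein of the tail.
Prm1 (chr16:10796824-10796943, minus strand): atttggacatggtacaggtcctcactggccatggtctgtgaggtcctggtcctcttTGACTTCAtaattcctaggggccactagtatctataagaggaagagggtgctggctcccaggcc
Tnp1 (chr1:73015900-73016019, minus strand): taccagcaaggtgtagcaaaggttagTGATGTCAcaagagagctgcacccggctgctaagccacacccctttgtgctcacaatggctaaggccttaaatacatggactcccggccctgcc
Gsg1 (chr6:135254337-135254456, minus strand): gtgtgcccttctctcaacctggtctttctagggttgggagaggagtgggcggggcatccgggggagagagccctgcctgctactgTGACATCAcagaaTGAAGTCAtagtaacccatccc
Hmgb4 (chr4:128260896-128261015, minus strand): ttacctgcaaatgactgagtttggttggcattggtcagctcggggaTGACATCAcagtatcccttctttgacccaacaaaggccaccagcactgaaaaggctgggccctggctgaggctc
Pgk2 (chr17:40208610-40208729, minus strand): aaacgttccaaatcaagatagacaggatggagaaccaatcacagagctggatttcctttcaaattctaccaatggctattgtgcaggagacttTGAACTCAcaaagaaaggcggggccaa
Gapdhs (chr7:30743682-30743801, minus strand): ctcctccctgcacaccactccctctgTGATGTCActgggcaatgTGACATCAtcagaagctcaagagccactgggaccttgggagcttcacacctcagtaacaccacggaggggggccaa
Akap4 (chrX:7067395-7067514, plus strand): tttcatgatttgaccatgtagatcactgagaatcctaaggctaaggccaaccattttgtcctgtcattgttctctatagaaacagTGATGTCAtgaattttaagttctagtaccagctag
The capitals read TGACTTCA in Prm1, TGATGTCA in Tnp1 and Akap4, TGACATCA in Hmgb4 and TGAACTCA in Pgk2. Gsg1 holds TGACATCA and TGAAGTCA, and Gapdhs holds TGATGTCA and TGACATCA. Counted from -1 at the base before the start, the match begins at -64 in Prm1, -94 in Tnp1, -74 in Hmgb4, -35 in Akap4 and -27 in Pgk2.

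Of the 404 genes with the steep rise, 118 (29.2%) held TGANNTCA in these 250 bases, against 52 of 679 lower genes (7.66%) and 1277 of all 11202 genes (11.4%). The full element TGACGTCA, one of the sequences that TGANNTCA covers, was in 4 promoters of steeply rising genes (0.990%), 8 of lower genes (1.18%) and 334 of all (2.98%). Base composition differed too. The median GC share of the promoters was 50.8% in the steeply rising genes, 59.2% in the lower genes and 59.6% in all. Among promoters of 45% to 55% GC, TGANNTCA was held by 65 of 196 steeply rising genes (33.2%), 15 of 183 lower genes (8.20%) and 451 of all 2881 (15.7%). TGACGTCA was held by 3 of these 196 (1.53%), 0 of the 183 and 61 of the 2881 (2.12%), a smaller gap than over all promoters.

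The protamine promoter of Prm2 is shown because it lacks TGANNTCA in this window. In capitals is a match of TATAAA, searched on both strands and read here as its reverse complement. The capitals mark a letter match, and the direction of a TATA box was not determined.
Prm2 (chr16:10792106-10792225, minus strand): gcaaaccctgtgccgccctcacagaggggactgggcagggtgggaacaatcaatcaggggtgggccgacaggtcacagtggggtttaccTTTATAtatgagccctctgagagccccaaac
The X-box core GTTGCC, searched on both strands, was in 87 of the 404 steeply rising genes (21.5%), in 78 of the 679 lower genes (11.5%) and in 1424 of all genes (12.7%). The longer form GTTGCCATG, which contains that core, was in 13 of the 404 (3.22%), in 2 of the 679 (0.295%) and in 85 of all genes (0.759%). These promoters are shown because the genes hold the longer form, which is in capitals (CATGGCAAC where it lies on the other strand). Tcp11 encodes a sperm protein and Deup1 a protein that amplifies centrioles in multiciliated cells.
Tex33 (chr15:78395913-78396032, minus strand): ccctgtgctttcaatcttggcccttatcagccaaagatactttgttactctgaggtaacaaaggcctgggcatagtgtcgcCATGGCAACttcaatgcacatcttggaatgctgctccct
Tcp11 (chr17:28079765-28079884, minus strand): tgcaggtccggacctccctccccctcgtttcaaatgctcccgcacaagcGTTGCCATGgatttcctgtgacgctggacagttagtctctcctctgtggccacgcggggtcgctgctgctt
Lrrc34 (chr3:30647819-30647938, minus strand): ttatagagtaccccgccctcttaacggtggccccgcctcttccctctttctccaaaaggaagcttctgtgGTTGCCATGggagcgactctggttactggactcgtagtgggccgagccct
Deup1 (chr9:15627847-15627966, minus strand): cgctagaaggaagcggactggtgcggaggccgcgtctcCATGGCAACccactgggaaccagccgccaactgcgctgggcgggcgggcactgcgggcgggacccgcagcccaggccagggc
Tex33 had a mean signal of 22.5 in KO adults and 0.120 at 7 dpp, and Tcp11 had 108 in adults and 6.22 at 7 dpp. Their log2 changes were 4.22 and 3.85, and those of Lrrc34 and Deup1 were 2.83 and 2.37. The ETS site CCGGAAG ran against these letters, with 9 of the 404 steeply rising genes (2.23%), 24 of the 679 lower genes (3.53%) and 1607 of all genes (14.3%). The E-box CACGTG was in 14 of the 404 (3.47%), 51 of the 679 (7.51%) and 1089 of all genes (9.72%). TATAAA was in 46 of the 404 (11.4%), 81 of the 679 (11.9%) and 918 of all genes (8.19%). Among promoters of 45% to 55% GC it was in 17 of 196 (8.67%), 37 of 183 (20.2%) and 398 of 2881 (13.8%). There the steeply rising genes lay below all genes, while the lower genes stayed above them. In that range GTTGCC was in 53 of 196 (27.0%), 18 of 183 (9.84%) and 404 of 2881 (14.0%), and CCGGAAG was in 1 (0.510%), 5 (2.73%) and 350 (12.1%).

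**Figure D3:**
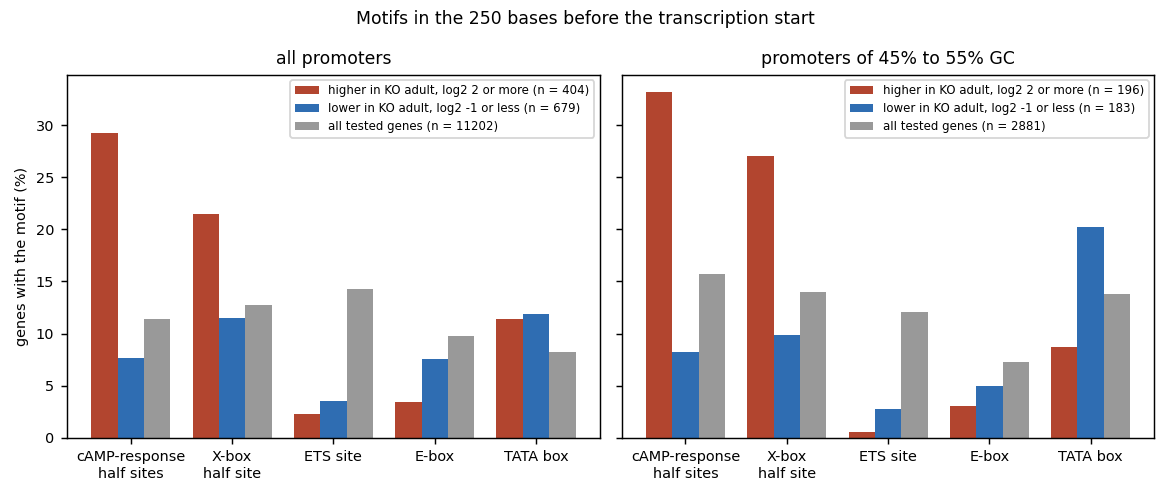
Bars give the percentage of genes whose 250 bases before the start hold the motif, for genes higher in KO adults by a log2 change of 2 or more (red), genes lower by 1 or more (blue) and all tested genes with a promoter entry (grey), over all promoters on the left and promoters of 45% to 55% GC on the right. The share with the outer bases of the cAMP response element is 29.2% in the red group on the left and 33.2% on the right.

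Many enzymes and structural proteins have a widely expressed gene and a second gene used in male germ cells, and 32 such pairs were set side by side. The germ cell form rose in 16 pairs, fell in 6 and did not pass in 10, while the widely expressed form rose in 0, fell in 19 and did not pass in 13. In 10 pairs the germ cell form rose and its partner fell. Phosphoglycerate kinase is a glycolytic enzyme with the X-linked gene Pgk1 and the retrogene Pgk2. Pgk2 had 57.2, 22.1 and 27.0 in adults and 0.039, 0.355 and 0.205 at 7 dpp (4.81 ± 0.32), while Pgk1 had 37.2, 36.4 and 39.1 in adults and 37.4, 35.4 and 34.6 at 7 dpp. Pgk2 therefore made up 60.6%, 37.8% and 40.9% of the summed signal of the pair in adults and 0.104%, 0.992% and 0.590% at 7 dpp. For lactate dehydrogenase, Ldhc made up 71.7%, 66.4% and 71.0% of the signal of Ldha and Ldhc in adults and 10.7%, 9.21% and 8.99% at 7 dpp (Ldhc 4.65 ± 0.35).

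Gapdhs, the sperm form of GAPDH, rose by 4.22 ± 0.29 and reached 11.9%, 5.28% and 5.98% of its pair in adults, against 0.278%, 0.180% and 0.274% at 7 dpp. Gapdh fell by 0.58 ± 0.12. Actl7b, an actin-like protein of spermatids, and the heat shock gene Hspa2 rose by 4.22 ± 0.40 and 1.46 ± 0.19 while Actb and Hspa8 fell by 0.64 and 0.71. Papolb, the poly(A) polymerase of spermatids, rose by 2.03 ± 0.27. In library 10 these shares were the highest of the adults for Pgk2, Ldhc, Gapdhs and Papolb. G6pd2 was listed at 0 in all 7 dpp libraries and had 4.65, 0.606 and 1.58 in adults.

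Not every germ cell form rose. Cyct, the testis form of cytochrome c, had 84.6, 76.9 and 78.0 in adults and 166, 212 and 195 at 7 dpp and fell by 1.24 ± 0.11. Pdha2, a subunit of pyruvate dehydrogenase, fell by 0.80 ± 0.21 alongside its X-linked partner Pdha1 (-1.37 ± 0.14), and Rpl10l fell by 0.67 ± 0.12 with Rpl10 (-0.55 ± 0.10). The germ cell forms Tuba3a and D1Pas1 did not pass (0.08 ± 0.09 and 0.07 ± 0.15), although Tuba3a passed as higher with rescaled totals (0.26). Their partners Tuba1b, an alpha tubulin, and Ddx3x, an RNA helicase, fell by 1.90 ± 0.08 and 1.74 ± 0.12. Tuba1b had 117, 122 and 118 in adults and 441, 457 and 440 at 7 dpp. Members of pairs share sequence, and the authors' quantification may have split reads between them, so values of closely similar copies such as Tuba3a, D1Pas1 and the ribosomal protein copies are uncertain.

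The X chromosome is silenced in spermatocytes during meiosis. X-linked genes stood apart here, and the cause was not tested. Of 601 X-linked genes tested, 83 (13.8%) rose and 249 (41.4%) fell, with a median change of -0.26. Over 13777 autosomal genes, 24.7% rose and 23.1% fell (median 0.01). Single autosomes had 17.8% to 29.5% higher and 18.9% to 30.3% lower genes, so the X lay outside their range on both counts. In WT the X had 29.0% lower genes (median -0.23), against 13.6% on the autosomes. Single X-linked genes went the other way, as Akap4 and Esx1 did. Of 8 Y-linked genes, Zfy1 (0.63 ± 0.22), Zfy2 (0.69 ± 0.20) and Eif2s3y (0.32 ± 0.07) rose. Kdm5d, a histone demethylase, fell by 0.57 ± 0.14.

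**Figure D4:**
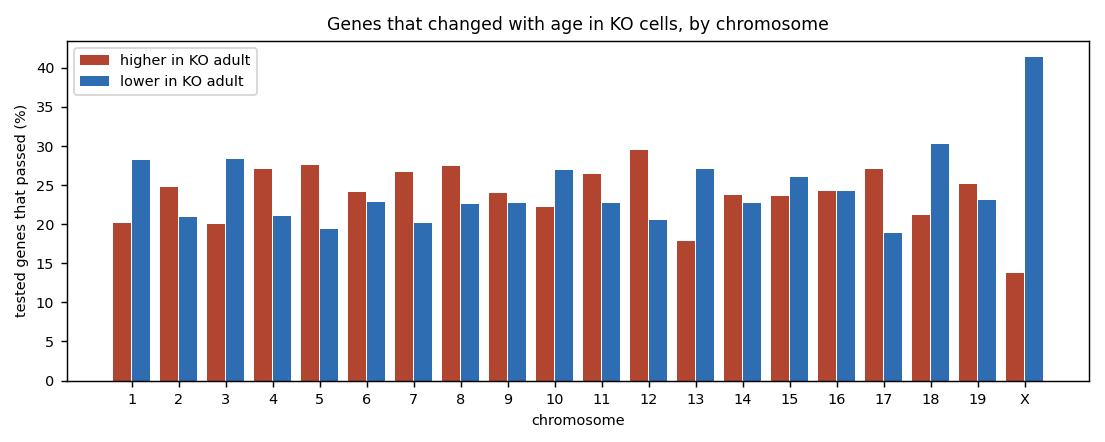
Percentage of tested genes on each chromosome that were higher (red) or lower (blue) in KO adult than in KO 7 dpp cells. The X chromosome has 13.8% higher and 41.4% lower genes, outside the range of the autosomes.

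Genes of undifferentiated spermatogonia, which hold the stem cells, were lower in adults: of 33 tested, 26 fell and 0 rose, with a median of -1.08. Zbtb16 (PLZF), a zinc finger factor that maintains stem cells, had 65.2, 66.2 and 55.9 in adults and 106, 128 and 141 at 7 dpp (-0.99 ± 0.14). Gfra1, the receptor for the growth factor GDNF, had 5.92, 5.49 and 4.78 in adults and 11.8, 89.7 and 45.4 at 7 dpp. Its co-receptor Ret had 12.2, 13.7 and 9.45 in adults and 28.4, 99.7 and 63.5 at 7 dpp. All 7 dpp libraries lay above all adult ones for these 3 genes, but library 4 was close to the adults for Gfra1. The changes were -2.57 ± 0.48 for Gfra1 (adjusted p = 0.000768) and -2.19 ± 0.31 for Ret (0.000118). Without library 4 the changes were -3.35 for Gfra1 and -2.67 for Ret, 25 of the 33 fell and the median was -1.10.

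The effectors of GDNF and FGF signals moved the same way. Their list shares members such as Dusp6 with that of undifferentiated spermatogonia, so the falls are not counted independently. In the list of growth factor receptors and effectors 16 of 23 genes fell and 4 rose (median -0.64). The counts without library 4 were equal (median -0.71). Without library 5, 12 of 22 fell (median -0.51), and without library 6, 11 of 22 fell (median -0.61). Etv5, an ETS factor that GDNF induces, had 5.10, 5.90 and 4.08 in adults and 10.4, 91.9 and 47.2 at 7 dpp (-2.63 ± 0.51). Library 4 was again the lowest KO pup library (-3.48 without it), and WT pups had 16.1 and 19.7 for Etv5. Dusp6, a phosphatase that dampens ERK, fell by 2.98 ± 0.24, and Egr1, an early growth response factor, by 2.29 ± 0.18. Fgfr3 and Kit were among the 4 that rose (0.61 ± 0.12 and 0.38 ± 0.14), with Csf1r, which is also a macrophage receptor (2.58 ± 0.65). Of 13 prospermatogonial genes, which mark the fetal and newborn stage, 7 fell and 1 rose (median -0.36). The steepest fall in this list was that of Kitl (-3.35), which is also in the Sertoli cell list. Tcl1, an activator of AKT, and Dppa4 fell by 2.35 ± 0.42 and 1.24 ± 0.13.

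Genes of differentiating spermatogonia were mixed, with 7 higher and 4 lower of 15 (median 0.22). Prss50 had 59.3, 104 and 124 in adults and 8.42, 3.03 and 5.18 at 7 dpp (3.90 ± 0.35), and Dmrtb1 (DMRT6), which controls the switch from mitosis to meiosis, had 279, 288 and 279 in adults and 86.3, 62.3 and 64.5 at 7 dpp (1.99 ± 0.25). For both genes every adult library was above every pup library. Kit, the receptor that marks differentiation, had 176, 185 and 186 in adults and 180, 123 and 123 at 7 dpp. It passed narrowly (adjusted p = 0.0359), overlapped between the ages through library 4, and did not pass without library 5, 6, 10, 11 or 12. Stra8, which retinoic acid induces at meiotic entry, had 591, 627 and 597 in adults and 812, 523 and 514 at 7 dpp (0.01 ± 0.16, not passed). Ccnd2, a D-type cyclin of spermatogonia, fell by 1.59 ± 0.17.

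Meiotic prophase genes rose in part: 20 of 39 rose and 1 fell, with a median of 0.35. The steepest rises in the list were those of Prdm9, Meioc, Ccna1 and Hspa2. Prdm9, which marks recombination hotspots, had 11.0, 20.1 and 18.6 in adults and 4.59, 2.30 and 3.29 at 7 dpp (1.99 ± 0.24). Meioc, which prolongs prophase, had 60.1, 76.1 and 86.5 in adults and 19.5, 13.4 and 22.0 at 7 dpp (1.97 ± 0.20). Library 10 was the lowest adult library for both, while it was the highest for the spermatid genes. Spo11, which cuts DNA to start recombination, rose by 0.97 ± 0.23, and Ccna1, the cyclin of late spermatocytes, by 1.50 ± 0.28.

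Sycp3, a core of the synaptonemal complex, had 291, 338 and 336 in adults and 287, 273 and 275 at 7 dpp (0.21 ± 0.11, adjusted p = 0.148). Sycp1 did not pass either (0.18 ± 0.09), although both passed with rescaled totals (0.38 and 0.35) and with quantile normalization. Piwil1 (MIWI), which appears in pachytene spermatocytes, had 26.6, 13.8 and 13.9 in adults and 14.1, 12.5 and 12.3 at 7 dpp (0.39 ± 0.21, not passed). In the piRNA pathway, 11 of 21 genes fell and 2 rose (median -0.27). The fetal PIWI gene Piwil4 had 18.8, 14.2 and 13.2 in adults and 36.0, 23.8 and 30.9 at 7 dpp (-0.93 ± 0.19), and Ddx4 fell by 0.41 ± 0.08. Tdrd6, a chromatoid body protein of spermatids, rose by 2.66 ± 0.36. Of 9 DNA methylation genes only Dnmt3a passed (-0.23 ± 0.07), and it did not pass without library 4, 5, 10 or 12. With rescaled totals the list turned to 3 higher and 0 lower, and Dnmt3a did not pass (-0.06). Dnmt1, the maintenance enzyme, had 293, 306 and 308 in adults and 258, 341 and 281 at 7 dpp.

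Cell cycle genes split with 5 higher and 7 lower of 34 (median -0.09), 5 and 13 without library 4, and 12 and 4 with rescaled totals. Over all genes tested, 23.6% were higher and 22.3% lower. Ccne2, a cyclin of S-phase entry, had 67.9, 71.0 and 78.7 in adults and 31.5, 24.6 and 26.6 at 7 dpp (1.37 ± 0.14). Cdk4, the partner of D-type cyclins, had 162, 177 and 151 in adults and 285, 383 and 340 at 7 dpp (-1.03 ± 0.12). The proliferation marker Mki67 had 103, 110 and 112 in adults and 80.5, 104 and 97.2 at 7 dpp and did not pass (0.22 ± 0.12).

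Components of the mTOR pathway, to which the missing protein belongs, were split as well. Of 40 tested, 9 rose and 11 fell with a median of 0.00. These counts were near the shares of all genes tested, of which 23.6% rose and 22.3% fell. With rescaled totals 15 rose and 7 fell (median 0.17, close to the 0.18 of all genes). Mtor, the kinase, had 112, 104 and 106 in adults and 89.4, 88.8 and 80.8 at 7 dpp (0.31 ± 0.08, adjusted p = 0.00485). Rheb, the GTPase that activates mTORC1, rose by 0.47 ± 0.11 and Ulk1, the autophagy kinase it restrains, by 0.56 ± 0.08. Rptor, the scaffold that PRAS40 binds, had 41.7, 41.4 and 36.8 in adults and 40.0, 38.8 and 42.9 at 7 dpp (-0.02 ± 0.10). Eif4ebp1, a repressor of translation that mTORC1 phosphorylates, fell by 0.59 ± 0.12. The lysosomal GTPase genes Rraga and Rragd fell by 0.70 ± 0.13 and 1.41 ± 0.24, and Ddit4 (REDD1), an inhibitor of mTORC1, by 1.23 ± 0.26. Among 30 lysosome and autophagy genes, 6 rose and 7 fell (median -0.05), again near the shares of all genes. With rescaled totals these turned to 11 higher and 5 lower.

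The machinery of protein synthesis was lower in adults. Of 74 cytosolic ribosomal protein genes 61 fell and 0 rose, with a median of -0.54. Rpsa, a protein of the small subunit, had 962, 1105 and 1026 in adults and 1904, 2360 and 2362 at 7 dpp (-1.09 ± 0.11), and Rpl3 fell by 0.80 ± 0.09. With rescaled totals 46 fell and 0 rose (median -0.36) and with quantile normalization, which forces 1 distribution on all libraries, 35 fell and 6 rose (median -0.16). Of 31 ribosome biogenesis genes 17 fell and 0 rose (median -0.30), among them Ncl (nucleolin, -0.35 ± 0.09), and with rescaled totals 11 fell and 2 rose (median -0.14). The fall was not particular to KO cells. In WT 60 of the 74 ribosomal protein genes fell and 0 rose (median -0.66). Of the 31 ribosome biogenesis genes, 21 fell and 0 rose in WT (median -0.43). Many ribosomal protein genes have near-identical copies, so single values are uncertain.

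Widely expressed enzymes of glycolysis and lipid synthesis fell in part. Of 18 glycolysis genes 10 fell and 1 rose (median -0.38). Ldhb, a lactate dehydrogenase, had 20.9, 15.2 and 17.1 in adults and 186, 114 and 117 at 7 dpp (-2.88 ± 0.25), and Pkm, the pyruvate kinase, had 228, 249 and 215 in adults and 540, 972 and 815 at 7 dpp (-1.71 ± 0.17). Slc2a1, a glucose transporter, fell by 1.24 ± 0.17. In the sterol and fatty acid list 15 of 25 genes fell and 2 rose (median -0.35), with Elovl6 and Scd2, which elongate and desaturate fatty acids, down by 1.93 ± 0.22 and 1.76 ± 0.14. Of 53 subunits of the respiratory chain 13 fell and 2 rose (median -0.06), a share of falls near the 22.3% of all genes tested. The counts turned to 8 lower and 10 higher with rescaled totals and to 8 lower without library 5 or 10.

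Markers of Sertoli cells were high at 7 dpp and low in adults. Of 20 tested, 19 fell and 0 rose, with a median of -3.24. The 12 steepest falls that fitted the naming rule were those of Ccn1, Amh, Edn1, Rhox8, Etd, Aard, Dhh, Inha, Tmem114, Gja1, Shbg and Hba-a1, of which Amh, Rhox8, Aard, Dhh and Inha are in this list. Amh, the hormone of immature Sertoli cells, had 1.14, 0.936 and 0.861 in adults and 82.3, 137 and 141 at 7 dpp (-5.89 ± 0.43, adjusted p = 6.14e-07). Dhh, a hedgehog ligand that Sertoli cells send to Leydig cells, had 0.918, 0.514 and 0.825 in adults and 41.8, 30.7 and 31.7 at 7 dpp (-4.34 ± 0.36). Sox9, their defining transcription factor, had 1.85, 1.60 and 1.81 in adults and 22.5, 13.5 and 14.4 at 7 dpp (-2.66 ± 0.35). The summed signal of the list was 346, 240 and 293 in adults and 2801, 1847 and 2020 at 7 dpp, with library 4 the highest. No member was at 0 in any of these 6 libraries. In bulk samples, fewer cells of a type and less RNA per cell cannot be told apart, and the part of Sertoli cell RNA in the other changes was not tested.

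Ccn1 (CYR61), a matrix signalling protein, showed the largest fall of the named genes, with 0.756, 1.80 and 0.350 in adults and 109, 185 and 176 at 7 dpp (-6.35 ± 0.56). Edn1 (endothelin) fell by 4.81 ± 0.49 and Gja1 (connexin 43), a gap junction protein, by 4.07 ± 0.34. Immediate early and dissociation stress genes were lower too: 13 of 21 fell and 0 rose, with a median of -1.11 (9 lower and -0.64 without library 11). Fos had 72.0, 20.4 and 40.1 in adults and 195, 192 and 222 at 7 dpp (-2.35 ± 0.42), with library 11 the lowest. Jun passed narrowly (-1.37 ± 0.51, adjusted p = 0.0403) and did not pass with rescaled totals or without library 4, 5, 6, 11 or 12. Such genes respond within minutes to tissue dissociation, and whether digestion took the same time at both ages is not given, so this was not tested.

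Leydig cell and macrophage genes varied widely between libraries of the same age. Insl3, a hormone of Leydig cells, had 2626, 71.2 and 1096 in adults and 8.56, 1.97 and 43.8 at 7 dpp. Library 11 was low among the adults and library 6 was high among the pups, and the groups did not overlap (5.77 ± 1.45, adjusted p = 0.00560). The change of Insl3 was 4.70 without library 10 and 7.29 without library 11. Hsd3b1, an enzyme of steroid synthesis, was highest in a pup library, with 17.1, 0.340 and 9.26 in adults and 0.0870, 0.215 and 36.8 at 7 dpp. Cyp17a1 and Cyp11a1, enzymes of steroid synthesis, did not pass (3.27 ± 1.33 and 2.30 ± 1.54), with 4.27 and 1.50 in library 11 against 115 and 62.8 in library 10. Of 11 Leydig cell genes 2 rose and 2 fell (median 0.67, or 0.20 without library 10 and 1.39 without library 11). The rises were those of Insl3 and Hsd3b6, the falls those of Nr5a1 and Hsd17b3, a steroid enzyme that did not pass without library 5, 6 or 11. Nr5a1, a factor of steroid cells, is also a Sertoli cell gene. Of 11 macrophage genes 10 rose and 0 fell (median 1.47). C1qa, a complement protein, had 59.4, 7.32 and 20.9 in adults and 2.81, 0.839 and 2.75 at 7 dpp (2.90 ± 0.69), but 3 of 9 tested members rose without library 10, and 4 of 11 without library 5. The summed macrophage signal was 457, 59.9 and 170 in adults and 21.4, 15.5 and 43.4 at 7 dpp, and its part in other rises was not tested.

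Other cell types contributed little signal. Summed stromal fibroblast genes had 31.1 to 38.4 in adults and 54.3 to 77.7 at 7 dpp, with 5 of 8 lower and 0 higher (2 lower without library 6 or 11), while endothelial genes had 40.5 to 50.4 in adults and 42.2 to 50.5 at 7 dpp, with 3 of 6 lower, among them Pecam1 (-1.24 ± 0.26). Of 8 myoid genes 3 fell and 1 rose (Acta2 -2.60 ± 0.53, Actg2 2.69 ± 0.38). The globin genes Hba-a1 and Hbb-b1 fell by 3.99 ± 0.89 and 3.70 ± 0.84, as 2 of 3 erythroid genes tested. Of 18 p53 targets 3 rose and 5 fell (1 lower without library 5 or 11, and 7 higher and 2 lower with rescaled totals), with Phlda3, an AKT inhibitor, up by 0.66 ± 0.11 and Pmaip1 (NOXA), a cell death gene, down by 1.23 ± 0.37, which was lost without library 5, 6 or 11.

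**Figure D5:**
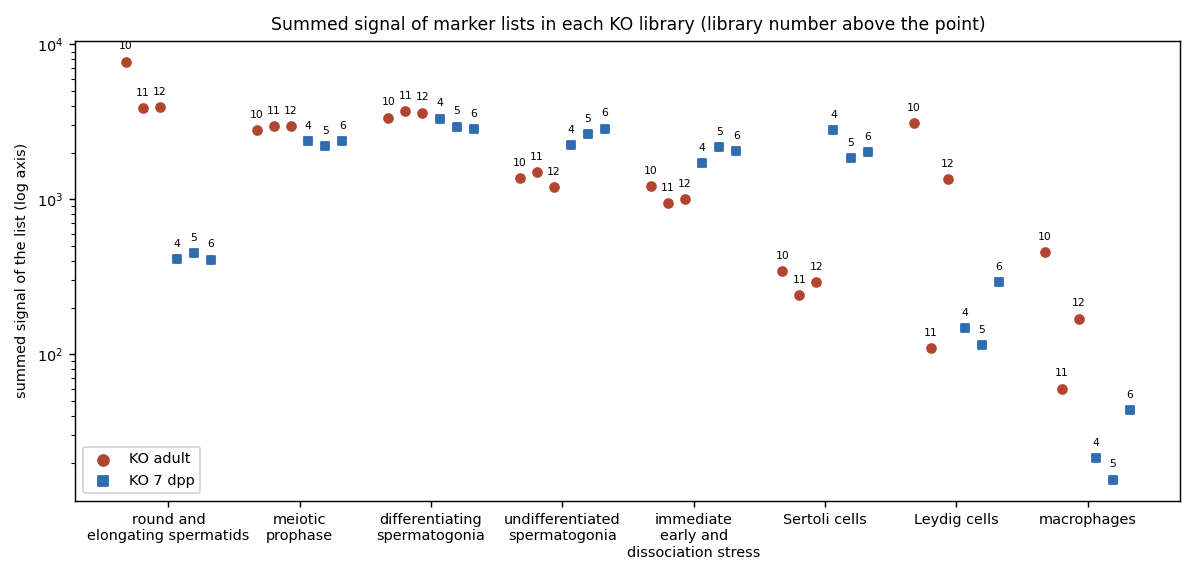
Summed signal of 8 marker lists in each KO library on a log axis, with adults (red circles) left of 7 dpp (blue squares) and the library number above each point. Library 10 is the highest adult library for spermatid, Leydig cell and macrophage genes, and library 11 has the lowest Leydig cell sum of all 6 (110).

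The same ages were compared in WT mice to see whether the changes were particular to KO cells. In WT, 2955 genes were higher (18.0%) and 2170 lower (13.2%) in adults than at 7 dpp. Of the KO genes that rose, 2339 also rose in WT, which is 60.4% of those in KO and 79.2% of those in WT. Of those that fell, 1728 also fell in WT, 47.0% of those in KO and 79.6% of those in WT, and 17 genes passed in opposite directions. No difference of the age effect between genotypes passed (0 higher and 0 lower in limma). An unadjusted p under 0.05 was reached by 2096 of 16440 genes and the smallest adjusted p was 0.181. With library weights estimated by limma, however, 254 genes were higher and 856 lower in this test. These weights leaned on 1 library in each KO group. They were 7.73 for library 6 against 0.41 and 0.57 for libraries 4 and 5. Adult library 12 had 3.01, against 0.63 and 1.04 for libraries 10 and 11. The test set 3 libraries a side in KO against 2 a side in WT.

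Lists differed in their values between genotypes, with no gene of theirs passing that test. The lists furthest apart were not germ cell lists. The median change in KO minus that in WT was -3.6 for 3 erythroid genes. For macrophage genes it was -2.54 and for Leydig cell genes -2.2, and both lists also varied widely within an age. It was -1.52 for immediate early genes, -0.83 for undifferentiated spermatogonia, -0.74 for Sertoli cells and -0.61 for spermatids. Spermatid genes rose in WT with a median of 3.43 (50 of 52 rose), against 3.04 in KO. Prm1 had 3564 and 1553 in WT adults and 8.09 and 7.05 in WT pups. Undifferentiated spermatogonia genes fell in 4 of 33 cases in WT (median -0.36), against 26 of 33 in KO. Immediate early genes had 0 higher and 13 lower members in KO, and 6 higher and 2 lower in WT, with medians of -1.11 in KO and 0.39 in WT. Their summed signal was 943 to 1224 in KO adults and 1713 to 2169 in KO pups, against 1449 to 1718 in WT adults and 1330 to 1357 in WT pups. Sertoli cell genes fell in 16 of 20 cases in WT (median -2.23). The 4 non-provisional genes with the smallest p of the difference, none of which passed, were Slc25a4, Defb46, Zfp703 and Gprc5c, all with an adjusted p of 0.181. Slc25a4, the ADP/ATP carrier of mitochondria, had 19.9, 18.2 and 17.1 in KO adults and 64.3, 71.7 and 58.1 in KO pups, against 35.9 and 31.0 in WT adults and 49.0 and 50.5 in WT pups. Defb46, a defensin gene, was listed at 0 in all 3 KO adult libraries and had 30.7, 8.44 and 9.95 in KO pups, against 9.33 and 8.40 in WT adults and 13.5 and 13.5 in WT pups. Slc25a4, Defb46 and Zfp703 all lie on chromosome 8.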

How the data were processed

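RNA of sorted testis cells was measured in 15 libraries. The files hold a signal per gene name, which the authors deposited with 1 value per library. The genome build mm10 and the tools kallisto, DESeq2 and Trim Galore are named, without versions or order, per the submitters' processing notes. Low values behaved as whole steps of 0.01 TPM times a factor per library, within 0.000546 of a step. Read depth is therefore unknown and no count test was run. Genes with signal of 1 or more in 2 of the 6 KO libraries were kept. All 15 libraries entered a limma 3.58.1 fit (R 4.3.3) of log2(signal + 1) with 6 group means and a mean-variance trend, and p-values were adjusted by Benjamini-Hochberg over 16440 genes at a threshold of 0.05. The pseudocount of 1 understates changes of low genes. The fit was tested on simulated data. Names were matched to GENCODE M21 (11287 genes) and RefSeq (31 by symbol, 3068 by synonym), and 2054 had no place. Named are Akt1s1 and Pou5f1, the key genes of the lists, up to 4 members per list by p, members of the pairs, the 12 highest and 12 lowest changes with a mean signal of 5 or more whose libraries did not overlap, and 4 genes of the genotype difference. Promoter examples and the X-box genes were chosen after their values were seen, as were other list members given as examples. Members and lists were chosen with earlier results of these data known, so none is independent evidence. Alternatives were other pseudocounts, filters, scalings and fits, and leaving out each library.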

Additional observations from a re-analysis of the deposited data

Results flagged for a closer look

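For 5 named genes every KO library moved 1 way with age and every WT library the other way. The difference itself was tested in the limma fit and passed for none of the 5. The change in KO minus that in WT was -1.37 ± 0.25 (log2, SE) for Gprc5c, a receptor, with an adjusted p of 0.181: 3.49, 2.95 and 3.07 in KO adults and 5.56, 6.29 and 4.97 in KO pups, against 5.95 and 4.59 in WT adults and 2.86 and 2.79 in WT pups. It was -2.31 ± 0.80 for Jun (0.288), with 49.1, 9.96 and 25.1 in KO adults and 63.8, 60.9 and 61.5 in KO pups, against 102 and 52.9 in WT adults and 46.5 and 30.9 in WT pups. The endothelial cadherin gene Cdh5 had -1.17 ± 0.45 (0.330), and Sesn1, a sestrin that restrains mTORC1, had -0.74 ± 0.16 (0.184). For Sycp3 the difference was 0.36 ± 0.18 (0.413).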

How the results depend on the processing

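The KO count of 7548 genes kept within 1.5 times under every alternative, from 5732 with a mean signal of 5 or more to 11248 with library weights, and leaving out 1 KO library gave 5997 to 7446. The WT count of 5125 ran from 2513 (without WT 7) to 5449 when 1 library was left out. The count of 0 for the difference between genotypes became 1 with a pseudocount of 0.1 and 1110 with library weights, and ran from 0 to 57 when 1 library was left out, the highest without KO 7 dpp library 4. Of 3777 values of 238 named genes under 16 alternatives, 3600 kept their call and direction, 116 lost the call, 59 gained it and 2 reversed: with quantile normalization Slc25a31 moved to 0.01 and Taf7l to 0.22. For other changes the cause was not tested. Of 188 called genes, 161 kept the call throughout. No paired analysis was possible because the groups share no library numbers. TPM-like values hold no read number, so how depth limits low genes is unknown. With 3 libraries a side, small differences may be missed.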

Other observations

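Genes that followed Insl3 across the adult KO libraries were counted after their values were seen. There were 97 genes, 26 of them provisional, with at least 8 times the signal in library 10 as in library 11, at least 3 times in library 12 as in library 11, and at least 5 in library 10. They included 7 Leydig cell and 2 macrophage list members. Those lists hold only 11 and 12 genes, so the counts do not divide the 97 genes between cell types. The lipocalin gene Lcn2 had 302, 14.2 and 148 in libraries 10, 11 and 12, and Agt, which encodes angiotensinogen, had 113, 1.90 and 60.7. The antigen presentation gene Cd74 had 63.8, 4.39 and 34.8 in KO adults, against 23.8 and 24.1 in WT adults. The glutathione transferase gene Gstm1 had 262, 23.1 and 142 in KO adults and 405, 333 and 362 in KO pups, so it was high in pups, unlike Insl3.

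At 7 dpp, 36 non-provisional genes had at least 3 times the signal in library 5 as in library 4, at least 2 times in library 6 as in library 4, and at least 10 in library 5. Of these, 6 are in the list of undifferentiated spermatogonia and 4 in that of growth factor receptors and effectors. These lists share members, so the same gene can be in both counts. Outside the lists, Foxc2, a forkhead factor, had 8.85, 56.5 and 30.8 in libraries 4, 5 and 6, Rspo2, a WNT agonist, had 6.65, 23.0 and 16.1, and the neurofilament gene Nefm had 3.29, 39.7 and 21.8. In adults these 3 genes had 3.38 to 5.25, 2.62 to 3.25 and 1.01 to 1.22. In WT pups Foxc2 had 8.98 and 9.6, Rspo2 had 6.51 and 9.04, and Nefm had 4.77 and 7.40. The source of either pattern was not tested.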
